A study of Mus musculus with 7 samples.

Results

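Zinc finger genes whose mouse symbol is Zfp followed by a number lie in dense clusters on several chromosomes. Those described here are the 201 protein-coding Zfp genes on chromosomes 7, 8, 13 and 17 of GRCm38, out of 397 such genes and 21887 protein-coding genes in all. They were taken by symbol and chromosome alone, and 93 lie on chromosome 7, 25 on chromosome 8, 37 on chromosome 13 and 46 on chromosome 17. A gene was called clustered when another Zfp gene lay within 100 kb, measured between gene bodies, which put 149 genes in the clustered and 52 in the isolated class. The marks were mapped by chromatin immunoprecipitation and sequencing in globose basal cells, the dividing progenitors of the olfactory epithelium. The donors were wild-type adults killed 7 to 10 days after methimazole, which destroys this epithelium and starts its regrowth. Each replicate pooled 3 mice, and its progenitors were enriched with an antibody to c-Kit bound to magnetic beads. The groups used were H3K27me3 (2 libraries), a repressive mark that the Polycomb complex PRC2 lays down, and H3K27ac (2 libraries), a mark of active promoters and enhancers. The samples used here hold no untreated group and no other genotype.

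Most Zfp proteins bind DNA through tandem C2H2 zinc fingers, each a short loop held by a zinc ion. Many of the clustered ones also carry a KRAB domain, which recruits the co-repressor Trim28 and, through it, the H3K9 methyltransferase Setdb1, and they are best known for silencing transposable elements. Their clusters grew by tandem duplication, so neighbours are often close relatives. The pattern also takes in genes of other kinds. Zfp36 and Zfp36l2 encode CCCH zinc finger proteins that bind messenger RNA, and Zfp143, Zfp423 and Zfp536 encode C2H2 factors without a KRAB domain.

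The promoters of 6 genes that stand for the classes met below are shown here, because CpG content and the position of the start are compared with the marks further on. Each run has 300 bases, 250 before and 50 after a listed transcript start, from RefSeq (GRCm38.p6), written 5′ to 3′ on the gene's strand with each CpG in capitals. Zfp536 (chr7:37769703-37770002, minus strand) was the highest-ranked gene with H3K27me3 alone, and Zfp580 (chr7:5051282-5051581, plus strand) the highest-ranked with both marks. Zfp819 (chr7:43606919-43607218, plus strand) was the highest-ranked clustered gene with H3K27me3 and no H3K27ac in both libraries. Zfp143 (chr7:110061452-110061751, plus strand) and Zfp617 (chr8:71922575-71922874, plus strand) led the isolated and the clustered genes with H3K27ac alone. Zfp708 had no mark at either gene end, and both of its listed starts are given, the outer one (chr13:67097927-67098226, minus strand) and an inner one (chr13:67081496-67081795, minus strand) that lay under H3K27ac peaks of both libraries.
Zfp536: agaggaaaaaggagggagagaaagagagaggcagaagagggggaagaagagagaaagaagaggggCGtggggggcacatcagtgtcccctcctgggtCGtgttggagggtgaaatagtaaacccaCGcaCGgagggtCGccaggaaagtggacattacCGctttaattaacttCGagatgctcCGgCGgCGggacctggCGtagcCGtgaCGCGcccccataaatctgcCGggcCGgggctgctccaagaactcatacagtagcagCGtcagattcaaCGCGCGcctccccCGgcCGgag
Zfp580: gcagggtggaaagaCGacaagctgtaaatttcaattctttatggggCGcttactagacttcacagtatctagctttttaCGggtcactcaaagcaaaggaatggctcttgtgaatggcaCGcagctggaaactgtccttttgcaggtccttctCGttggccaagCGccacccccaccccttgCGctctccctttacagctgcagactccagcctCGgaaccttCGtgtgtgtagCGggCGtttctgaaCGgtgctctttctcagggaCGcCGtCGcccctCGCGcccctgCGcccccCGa
Zfp819: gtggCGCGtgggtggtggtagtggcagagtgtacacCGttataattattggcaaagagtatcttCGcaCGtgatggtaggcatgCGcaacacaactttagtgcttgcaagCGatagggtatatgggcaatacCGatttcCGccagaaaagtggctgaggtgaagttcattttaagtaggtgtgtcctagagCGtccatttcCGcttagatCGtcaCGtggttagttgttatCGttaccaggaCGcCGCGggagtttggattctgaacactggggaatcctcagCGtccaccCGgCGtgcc
Zfp143: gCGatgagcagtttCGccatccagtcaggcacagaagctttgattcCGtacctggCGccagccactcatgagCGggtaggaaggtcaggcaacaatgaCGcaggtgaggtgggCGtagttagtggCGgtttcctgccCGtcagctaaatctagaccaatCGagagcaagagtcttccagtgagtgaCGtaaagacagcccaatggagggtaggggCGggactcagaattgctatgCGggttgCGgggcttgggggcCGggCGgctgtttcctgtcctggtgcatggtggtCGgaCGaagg
Zfp617: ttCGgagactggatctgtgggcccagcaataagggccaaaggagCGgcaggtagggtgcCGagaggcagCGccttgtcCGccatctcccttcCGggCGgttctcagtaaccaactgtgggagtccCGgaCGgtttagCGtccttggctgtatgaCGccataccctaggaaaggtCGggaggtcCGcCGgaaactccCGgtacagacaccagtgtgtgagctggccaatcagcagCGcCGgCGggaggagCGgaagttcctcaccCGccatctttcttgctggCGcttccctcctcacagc
Zfp708, outer start: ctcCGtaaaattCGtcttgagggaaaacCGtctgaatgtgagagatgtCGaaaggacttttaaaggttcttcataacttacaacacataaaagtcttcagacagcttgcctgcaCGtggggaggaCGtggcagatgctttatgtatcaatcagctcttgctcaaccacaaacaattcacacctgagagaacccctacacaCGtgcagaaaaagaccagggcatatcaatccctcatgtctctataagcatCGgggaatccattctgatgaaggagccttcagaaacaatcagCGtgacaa
Zfp708, inner start: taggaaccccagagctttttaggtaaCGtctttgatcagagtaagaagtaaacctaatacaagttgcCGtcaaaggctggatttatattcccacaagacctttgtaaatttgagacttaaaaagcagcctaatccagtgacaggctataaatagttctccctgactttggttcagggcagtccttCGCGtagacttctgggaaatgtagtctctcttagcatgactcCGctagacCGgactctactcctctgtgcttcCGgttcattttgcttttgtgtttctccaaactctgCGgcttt

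These promoters differed in CpG number, with 22 in Zfp536, 19 in Zfp580, 20 in Zfp819, 18 in Zfp143, 21 in Zfp617, and 9 and 8 at the outer and inner starts of Zfp708. Peaks of both H3K27me3 libraries lay over the promoters of Zfp536, Zfp580 and Zfp819. Peaks of both H3K27ac libraries lay over those of Zfp580, Zfp143 and Zfp617 and over the inner start of Zfp708. Promoters of 18 or more CpG were therefore found under either mark.

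The authors' peak lists held 95749 and 65172 peaks for H3K27me3 replicates 1 and 2, and 77680 and 64279 for H3K27ac replicates 1 and 2. Read totals are not given in the files, so depth is unknown, and absence of a peak means that none passed the authors' threshold at that depth. The labelled cell type was checked on 7 listed genes of globose basal cells and neuronal progenitors, among them Kit and Mki67, and all 7 carried H3K27ac while 4 also carried H3K27me3. Over all protein-coding genes the shares were 60.8% for H3K27ac and 28.7% for H3K27me3, so lists this short are a coarse check. H3K27ac was also at 2 of 5 horizontal basal cell genes, 3 of 4 sustentacular cell genes, 3 of 4 mature neuron genes, 2 of 4 leukocyte genes and 0 of 4 mast cell genes. H3K27me3 was at 4 of the horizontal basal cell genes, 2 of the mast cell genes and 1 gene in each of the other lists. A share of other cells in the selection was not tested, and fewer cells with a mark cannot be told apart from less of the mark per cell.

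H3K27me3 was sparse at the Zfp genes. A mark was assigned to a gene if both of its libraries had a peak within 1 kb of either annotated end, with 1 bp of overlap enough. By that rule 18 of 201 Zfp genes (8.96%) carried H3K27me3, against 28.7% of all protein-coding genes. In the single libraries 47 genes (23.4%) had a peak in replicate 1 and 22 (10.9%) in replicate 2, against 46.5% and 31.6% of all genes. The count therefore depended on the library: 29 genes had a peak in replicate 1 only and 4 in replicate 2 only. Fold enrichment over background, the authors' own value for a peak, had a median of 3.09 in replicate 1 where replicate 2 had no peak and of 5.05 at the 18 genes with both. Among all genes with H3K27me3 the medians were 4.79 and 3.82 in replicates 1 and 2, and among the 18 Zfp genes they were 5.05 and 3.54. When peaks needed a −log10 q of 2, 9 Zfp genes carried the mark, against 17.4% of all genes.

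H3K27ac was common. It was found at 164 of 201 genes (81.6%), against 60.8% of all protein-coding genes, and the libraries differed little, with 170 genes (84.6%) in replicate 1 and 165 (82.1%) in replicate 2, against 65.1% and 62.2% of all genes. At the 164 genes the strongest peak had a median fold enrichment of 10.3 and 7.31 in replicates 1 and 2, against 9.11 and 6.96 at all genes with the mark. Both marks were present at 10 genes (4.98%), against 17.5% of all genes, and 29 genes (14.4%) had neither, against 28.0% of all genes. The marks did not have to lie at the same end: at Zfp366 and Zfp580, H3K27me3 and H3K27ac of both libraries lay at opposite annotated ends. The other 4760 protein-coding genes of the same chromosomes carried H3K27me3 at 29.1% and H3K27ac at 58.6%. The 196 Zfp genes of the other chromosomes carried H3K27me3 at 21.4% and H3K27ac at 77.6%. Genes are not replicates, and a mark has 2 libraries, so these shares are descriptions without a test.

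Clustered and isolated Zfp genes had different shares of H3K27me3 and near-equal shares of H3K27ac. H3K27me3 was at 7 of 149 clustered genes (4.70%) and at 11 of 52 isolated genes (21.2%), a difference of −16.5 percentage points, clustered minus isolated. In replicate 1 alone the shares were 16.1% of clustered and 44.2% of isolated genes, and in replicate 2 alone 6.04% and 25%, so the difference was −28.1 points in replicate 1 and −19.0 points in replicate 2. Both libraries had the lower share in the clustered genes. H3K27ac was at 121 clustered genes (81.2%) and 43 isolated genes (82.7%). In replicate 1 alone it was 84.6% in both classes, and in replicate 2 alone 81.9% of clustered and 82.7% of isolated genes. Both marks together were at 3 clustered genes (2.01%) and 7 isolated genes (13.5%), against 17.5% of all genes. Neither mark was at 24 clustered genes (16.1%) and 5 isolated genes (9.62%), against 28.0% of all genes.

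**Figure D1:**
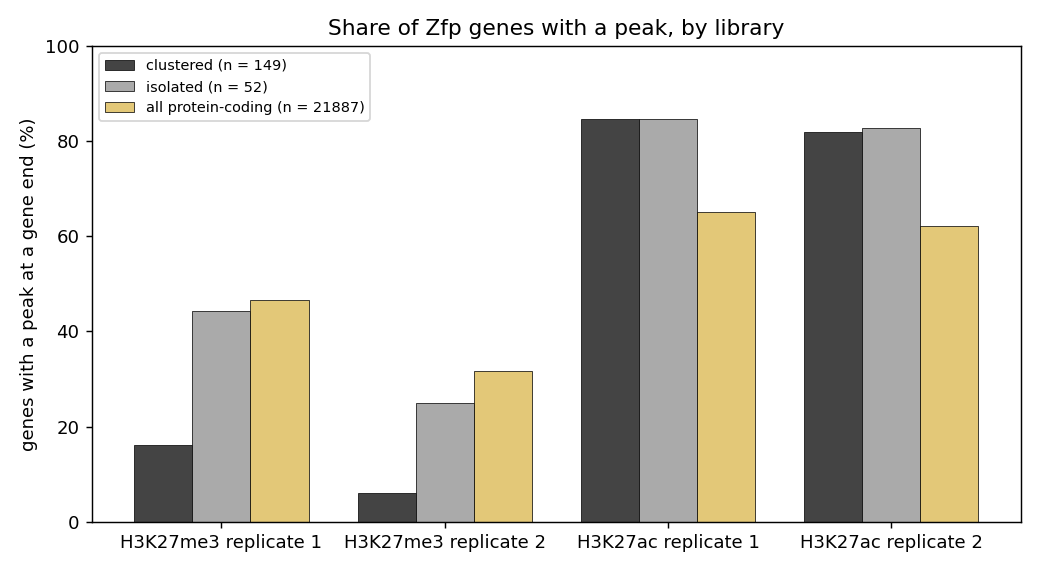
Percentage of genes with a peak within 1 kb of a gene end in each library, for clustered Zfp genes (dark bars), isolated Zfp genes (grey bars) and all protein-coding genes (yellow bars). The clustered genes stand at 16.1% and 6.04% for H3K27me3 replicates 1 and 2 and the isolated ones at 44.2% and 25%, while the H3K27ac bars of both classes lie between 81.9% and 84.6%.

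The same order of the H3K27me3 shares was seen on each chromosome. On chromosome 7 the mark was at 5 of 76 clustered and 4 of 17 isolated genes, and on chromosome 8 at 1 of 9 clustered and 4 of 16 isolated genes. On chromosome 13 it was at 0 of 27 clustered and 1 of 10 isolated genes, and on chromosome 17 at 1 of 37 clustered and 2 of 9 isolated genes. The Zfp genes of the other chromosomes, counted in the same way, had a smaller gap, with H3K27me3 at 15 of 77 clustered genes (19.5%) and 27 of 119 isolated genes (22.7%). There H3K27ac was at 71.4% of clustered and 81.5% of isolated genes. Whether the gap differs between these sets of chromosomes was not tested.

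The 100 kb limit had few genes near it. The clustered genes with the widest gaps were Zfp72 and Zfp825 (87.5 kb, neighbours of each other) and Zfp141 (73.6 kb), and the isolated genes with the narrowest gaps were Zfp936 and Zfp715 (104 kb) and Zfp574 (136 kb). None of the 6 carried H3K27me3, and Zfp936 was the only one of them without H3K27ac. A window can hold the end of another protein-coding gene, and this was so for 20 clustered and 9 isolated genes. Without them H3K27me3 was at 3.88% of clustered and 20.9% of isolated genes.

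The 18 genes with H3K27me3 included developmental regulators, an RNA-binding gene and single genes of clusters. Isolated ones were Zfp536, Zfp423, Zfp36l2, Zfp57, Zfp541, Zfp296, Zfp469, Zfp941, Zfp612, Zfp366 and Zfp827. Clustered ones were Zfp580, Zfp819, Zfp811, Zfp575, Zfp964, Zfp109 and Zfp768. Replicate 1 had the higher fold enrichment at 16 of the 18, the exceptions being Zfp109 and Zfp768. No H3K27me3 peak of either library was shared by 2 of these genes, but 4 of the 18 had the end of another protein-coding gene in a window. A gene's value is that of its strongest peak at either end, and at 3 of the 18, Zfp541, Zfp423 and Zfp768, the strongest H3K27me3 peaks of the libraries did not overlap. At Zfp541 and Zfp423 the libraries did have overlapping peaks at each end. Zfp768 had 1 H3K27me3 peak in each library, and these did not overlap. It still counts among the 18, the clustered genes with H3K27me3 and the genes with both marks.

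**Figure D2:**
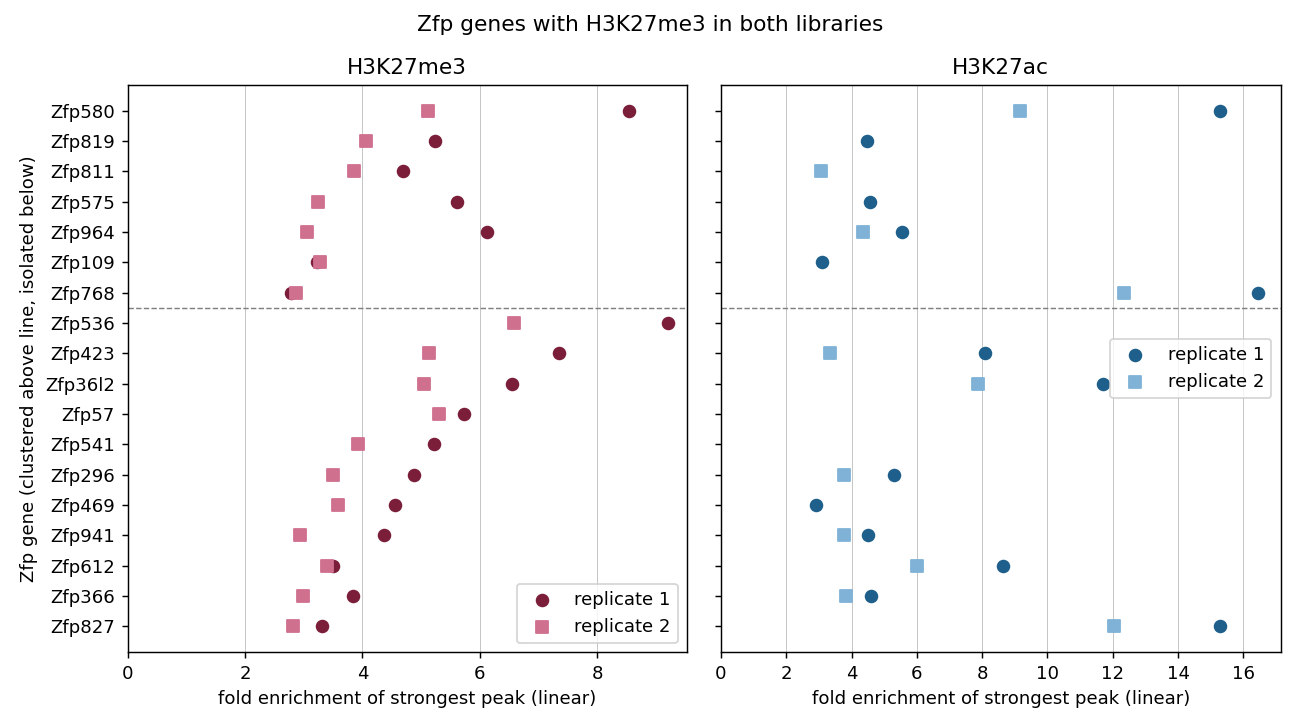
Fold enrichment (linear) of the strongest peak at the 18 Zfp genes with H3K27me3 in both libraries, for H3K27me3 at left and H3K27ac at right, with circles for replicate 1 and squares for replicate 2 and no point where a library had no peak. Zfp536 lies highest for H3K27me3, at 9.21 and 6.59, and has no H3K27ac point, whereas Zfp768 and Zfp827 are low for H3K27me3 and above 12 for H3K27ac.

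Among regulators of neuronal and other development, Zfp536 had the strongest mark. Zfp536, which encodes a repressor of neuronal differentiation, reached 9.21-fold H3K27me3 enrichment in replicate 1 and 6.59-fold in replicate 2, and had no H3K27ac peak at its ends in either library. Its peaks were 8349 and 10236 bp wide, the widest among the strongest peaks of the 18 genes in both libraries. Replicate 1 also had wider but weaker peaks at an end of Zfp469 (11320 bp) and of Zfp423 (8965 bp). Zfp536 was also the one Zfp gene whose peaks reached a −log10 q of at least 5 in both libraries. Zfp423, which encodes a large zinc finger partner of the Ebf factors of olfactory neurons, had H3K27me3 at both ends in both libraries. At the 5′ end H3K27me3 stood at 7.34 and 4.96 in replicates 1 and 2, under peaks of 5410 and 3986 bp, and H3K27ac at 8.10 and 3.35. At the 3′ end H3K27me3 stood at 6.35 and 5.14, and H3K27ac had no peak. Zfp469, whose human counterpart is mutated in brittle cornea syndrome, had H3K27me3 at 4.55 and 3.59 and an H3K27ac peak in replicate 1 only (2.92), at the opposite gene end from these H3K27me3 peaks. That opposite end also had a weaker H3K27me3 peak, in replicate 1 only (3.79).

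The RNA-binding gene Zfp36l2, whose product speeds the decay of messenger RNAs with AU-rich elements, had both marks. H3K27me3 stood at 6.55 and 5.05 and H3K27ac at 11.7 and 7.88 in replicates 1 and 2, with all 4 peaks between 4022 and 4446 bp wide. Its relative Zfp36 had H3K27ac at 13.6 and 10.8 and H3K27me3 in replicate 1 only (3.59).

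Genes known from germ cells, early embryos and pluripotent cells were also found among the 18. Zfp57, a KRAB gene whose product keeps DNA methylation at imprinted loci, had H3K27me3 at 5.74 and 5.30 and no H3K27ac peak. Zfp541, a gene of spermatocytes, had H3K27me3 at both annotated ends and no H3K27ac peak. H3K27me3 stood at 5.22 and 3.12 in replicates 1 and 2 at the annotated 5′ end and at 3.91 and 3.92 at the 3′ end, and none lay within 1 kb of the listed start, which is inside the gene. Zfp296, a gene of pluripotent stem cells, had H3K27me3 at 4.88 and 3.50 and H3K27ac at 5.29 and 3.77. By contrast Zfp42 (Rex1), the classical marker of pluripotent cells, had no peak of any library within the gene or 1 kb beside it.

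Of the clustered genes, Zfp580 had the strongest H3K27me3, at 8.55 and 5.13 in replicates 1 and 2, under peaks that reached from its listed start past its 3′ end. The H3K27ac values of 15.3 and 9.16 belong to the annotated 5′ end, where the peak was shared with Zfp784. Its run, from Zfp628 to Zfp580 on chromosome 7, had H3K27ac at all 6 genes and H3K27me3 at Zfp580 alone. Zfp819 had H3K27me3 at 5.25 and 4.07 and H3K27ac in replicate 1 only (4.48), and Zfp811 had H3K27me3 at 4.69 and 3.85 and H3K27ac in replicate 2 only (3.06). Zfp575 had H3K27me3 at 5.61 and 3.24 and H3K27ac in replicate 1 only (4.57). At Zfp964 H3K27me3 stood at 6.13 and 3.06 and H3K27ac at 5.55 and 4.34. In the other 6 genes, Zfp941, Zfp612, Zfp366, Zfp109, Zfp827 and Zfp768, H3K27me3 fold enrichment ran from 2.79 to 4.37 in replicate 1 and from 2.82 to 3.39 in replicate 2. Of these, Zfp827 and Zfp768 had strong H3K27ac, at 15.3 and 12 for Zfp827 and at 16.5 and 12.4 for Zfp768. At its annotated ends Zfp109 had H3K27ac in replicate 1 only (3.09). Within 1 kb of its listed start it had H3K27ac of both libraries and H3K27me3 in replicate 1 only.

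The highest H3K27ac fold enrichment was at Zfp143, an activator that binds many promoters, with 31.4 and 19 in replicates 1 and 2. Next by mean rank of the libraries came Zfp617 (19 and 18.5), Zfp866 (18.5 and 19), Zfp131, a BTB zinc finger gene (19.4 and 16.1), Zfp868 (18 and 16.5), Zfp668 and Zfp646 (20.4 and 12.9 from a peak they share) and Zfp869 (17.3 and 13). Zfp866, Zfp868 and Zfp869 belong to the same run on chromosome 8. Of these 8 genes Zfp617 alone had an H3K27me3 peak, in replicate 1 only (2.97). Zfp568, a KRAB gene whose product silences a placental Igf2 transcript in the mouse embryo, had H3K27ac at 10.7 and 8.31 and H3K27me3 in replicate 1 only (3.36). It and Zfp42 and Zfp36 were named for their known roles after their values were seen.

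The clustered genes formed 27 runs of 2 to 23 genes, chained by gaps of at most 100 kb. In 20 of the 27 runs no gene carried H3K27me3, and no run had more than 1 gene with it. In 12 runs every gene carried H3K27ac, and in 1, Zfp428 and Zfp575 on chromosome 7, none did by the rule of annotated ends. Zfp428 had H3K27ac of both libraries at its listed start, and H3K27ac covered 20.1% and 17.8% of the span of this pair, the highest cover of the 27 runs in both libraries. The largest run was Zfp712 to Zfp273 on chromosome 13 (67038594 to 67827000, 788 kb), where 17 of 23 genes carried H3K27ac and 0 had an H3K27me3 peak of either library at an annotated end. Zfp459, in this run, had one at its listed start in replicate 1 only. On chromosome 7 the largest was Zfp84 to Zfp146 (29768552 to 30169775, 401 kb) with H3K27ac at 14 of 15 genes, and 3 genes had H3K27me3 in replicate 1 and 0 in replicate 2. On chromosome 17 the run from Zfp677 to Zfp943 (21383707 to 21994366, 611 kb) had H3K27ac at 11 of 13 genes, with H3K27me3 peaks at 4 genes in replicate 1 and 1 in replicate 2. On chromosome 8 the run from Zfp868 to Zfp866 (69610654 to 69774911, 164 kb) had H3K27ac at all 5 genes and H3K27me3 at Zfp964. In the 3 runs of over 10 genes, 0 of 51 genes carried H3K27me3, against 4.70% of all clustered genes. In the single libraries 7 of the 51 had an H3K27me3 peak in replicate 1 and 1 in replicate 2. H3K27ac was at 42 of the 51 (82.4%), against 81.2% of all clustered genes.

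**Figure D3:**
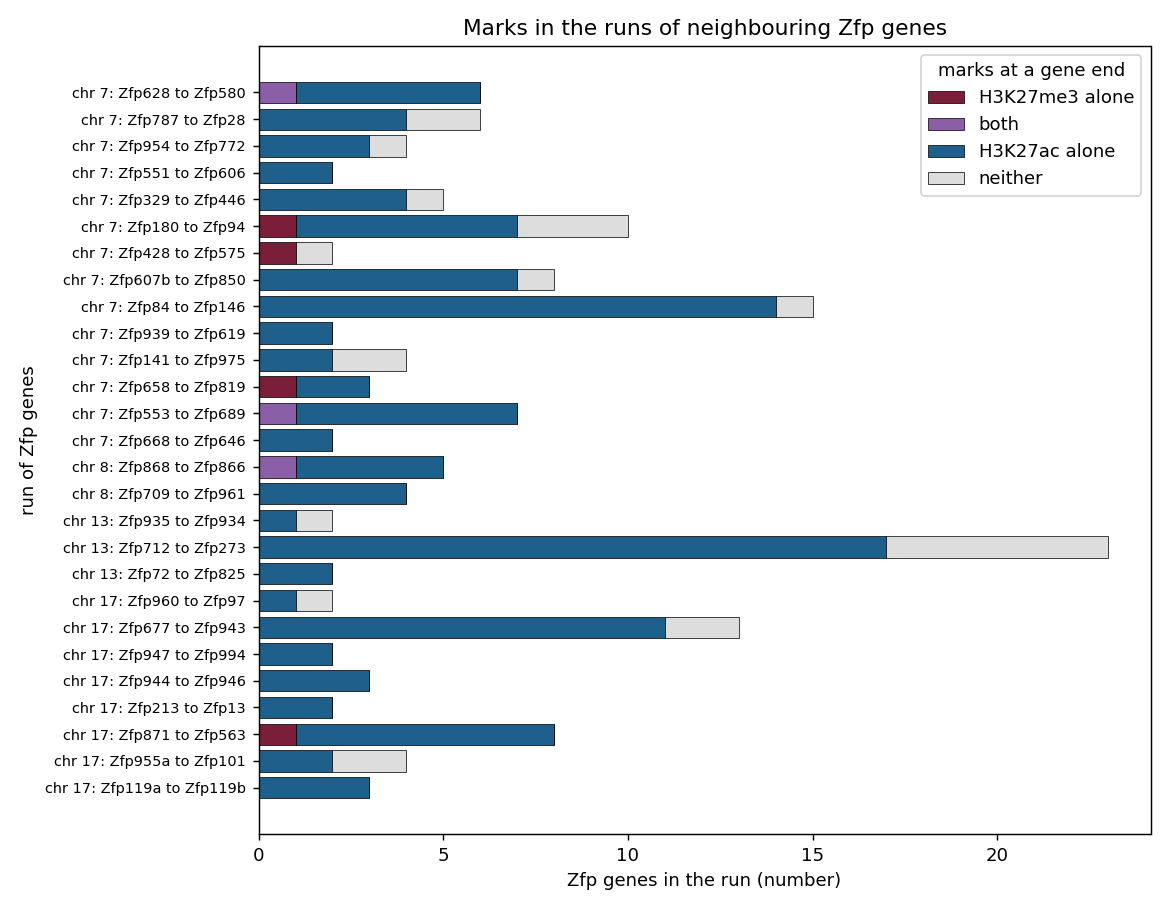
Number of Zfp genes in each of the 27 runs on chromosomes 7, 8, 13 and 17, split by the marks found at a gene end in both libraries. H3K27me3, alone or with H3K27ac, is seen at a single gene in each of 7 runs, and the 23 genes of the largest run hold 17 with H3K27ac alone and 6 with neither.

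Over their whole span, genes included, the runs had less H3K27me3 cover than the chromosomes they lie on. Peaks of H3K27me3 replicates 1 and 2 covered 1.86% and 1.36% of the 5.25 Mb in runs, against 4.39% and 3.91% of the 4 whole chromosomes. For H3K27ac the cover was 4.71% and 4.44% of the runs, against 4.94% and 3.79% of the chromosomes. The chromosomes differed in this. On chromosome 7 the runs had more, at 7.18% and 6.53%, against 5.43% and 4.21% of the chromosome. On chromosome 13 they had less, at 2.38% and 2.12%, against 3.22% and 2.5%. Chromosome 17 had less too, at 2.59% and 2.77%, against 5.96% and 4.46%. For chromosome 8 the values were 3.38% and 4.02%, against 5.19% and 3.99%. In the largest run H3K27me3 covered 0.613% and 0.364% and H3K27ac 2.75% and 2.43%. The run from Zfp628 to Zfp580 had the highest H3K27me3 cover in replicate 2, at 10.6%, and 11.9% in replicate 1, where the pair Zfp428 and Zfp575 had 12.6%. How much of these runs short reads can be placed in uniquely was not analysed here.

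The H3K27ac peaks of clustered genes were narrower than those of isolated ones. At genes with the mark, the strongest peak had a median width of 917 and 946 bp at clustered genes in replicates 1 and 2, against 1711 and 1727 bp at isolated genes. Over all protein-coding genes with H3K27ac the medians were 1799 and 1672 bp. The median was lower in the clustered class on each of the 4 chromosomes in both libraries, for instance 865 and 1036 bp on chromosome 8, against 2570 and 1478 bp for the isolated genes there. Median fold enrichment at these genes was 9.76 and 7.08 in the clustered class and 11.6 and 7.51 in the isolated class.

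Neighbouring genes could share an H3K27ac peak. In 8 pairs of adjacent Zfp genes a peak of each H3K27ac library touched the windows of both, so these calls are not independent. Among them were Zfp942 and Zfp943, whose bodies lie 55 bp apart on opposite strands and share a peak at 18.9 and 11.4, Zfp784 and Zfp580 (72 bp apart, opposite strands) and Zfp944 and Zfp758 (1 bp apart, opposite strands).

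Strand and transcript starts were listed for 176 of the 201 genes, and for 29 of these the listed start nearest the annotated 5′ end still lay over 1 kb inside the gene. H3K27ac in both libraries lay within 1 kb of the listed start at 156 of the 176 genes (88.6%), against 60.2% of all genes with a listed start. It lay within 1 kb of the far end at 13, all of which also had it at the start. H3K27me3 lay at the start of 12 genes (6.82%), against 24.0% of all genes with a listed start, and at the far end of 3. By listed starts H3K27ac was at 122 of 135 clustered genes (90.4%) and 34 of 41 isolated genes (82.9%), and H3K27me3 at 6 clustered (4.44%) and 6 isolated genes (14.6%). The H3K27ac order of the classes was thus the other way round from that at gene ends. The shares at listed starts leave out the 25 genes without one. These include 5 of the 18 with H3K27me3 at gene ends, namely Zfp575, Zfp612, Zfp469, Zfp366 and Zfp36l2. The shares by starts and by gene ends are therefore not of the same genes. Zfp119b, a clustered gene on chromosome 17, had H3K27me3 of both libraries at its listed start, but at its annotated ends in replicate 1 only (2.74).

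**Figure D4:**
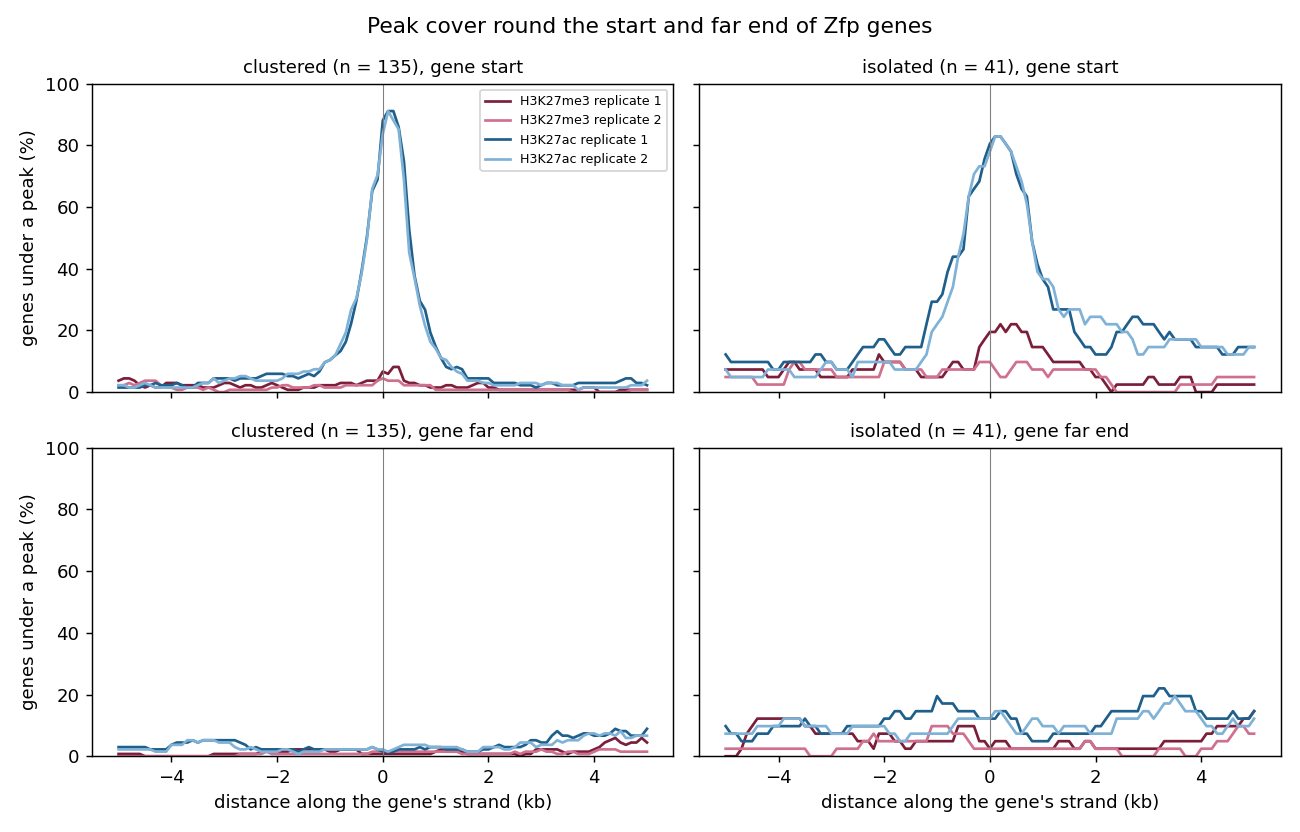
Percentage of Zfp genes covered by a peak of each library at distances of up to 5 kb from the listed start (top) and the far end (bottom), for 135 clustered genes (left) and 41 isolated genes (right), with positive distances downstream on the gene's strand. H3K27ac rises to 91.1% of clustered and 82.9% of isolated genes 100 bp downstream of the start in both libraries, and 1 kb downstream it is at 14.8% and 14.1% of clustered genes and 36.6% of isolated genes.

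The position of the start also bears on the 29 genes without a mark at either annotated end. Of these, 19 had H3K27ac of both libraries somewhere in the gene or 1 kb beside it, and 0 had H3K27me3 of both. Of the 26 with a listed start, 15 had H3K27ac of both libraries within 1 kb of one, among them Zfp787, Zfp583, Zfp61, Zfp790, Zfp229 and 6 genes of the chromosome 13 run, Zfp708 included. 6 of the 29 genes had no peak of any library in the gene or 1 kb beside it, namely Zfp42, Zfp977, Zfp640, Zfp97, Zfp955a and Zfp955b.

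CpG content was compared in the promoter nearest the annotated 5′ end. The 176 Zfp promoters had a median of 12 CpG in 300 bases, with 11 in the 135 clustered and 17 in the 41 isolated genes, against 13 in 17492 promoters of all genes. The 13 Zfp genes with H3K27me3 and a listed promoter had a median of 19, against 15 in all genes with that mark. The median was 21 in the 7 Zfp genes with both marks and 11 in the 6 with H3K27me3 alone, against 19 and 8 in all genes of those classes. The 137 with H3K27ac alone had a median of 12, and the 7739 such promoters of all genes had 21. Clustered Zfp genes with H3K27ac alone had 12 and isolated ones 18. The 26 without a mark at a gene end had 9, against 2 in the 4967 such promoters of all genes. These classes follow the annotated gene ends, whereas CpG was counted at a listed start, so they need not be the marks of the counted promoter. Of the 26, 15 had H3K27ac of both libraries within 1 kb of a listed start. Of the 6 with H3K27me3 alone, Zfp541 and Zfp109 did not have H3K27me3 of both libraries at the listed start.

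**Figure D5:**
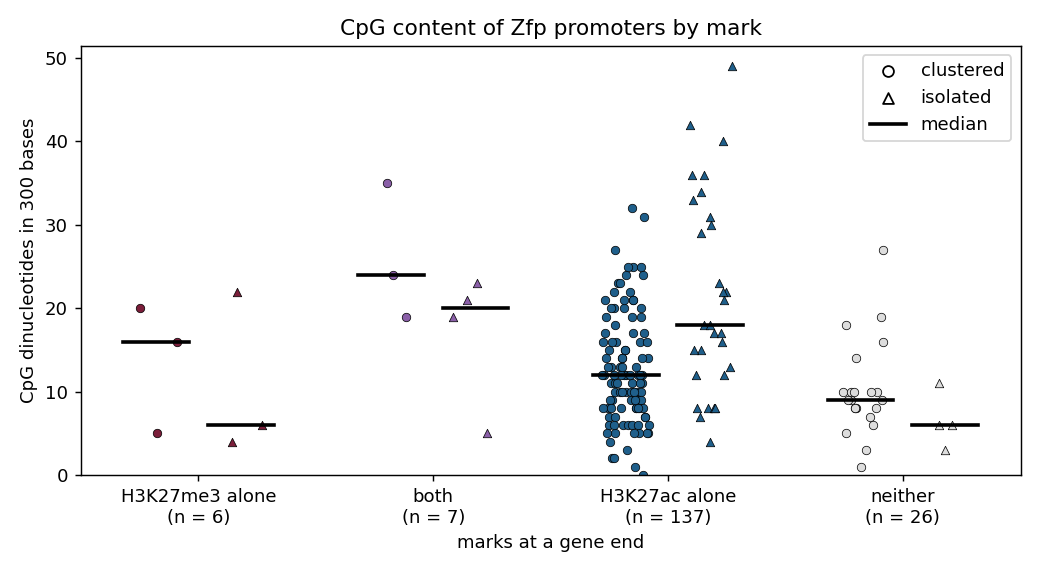
CpG dinucleotides in the 300 bases round the start of 176 Zfp genes, by the marks at a gene end, with circles for clustered genes, triangles for isolated genes and bars at the median of each. Clustered genes with H3K27ac alone have a median of 12 and isolated ones of 18, and the 26 genes with neither mark at a gene end have a median of 9. The marks at a gene end need not be those at the start shown.

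Each of 3 short motifs was searched on both strands of the same promoters. The letters CCGGAAGT, a binding sequence of ETS factors, were found in 18 of 176 Zfp promoters (10.2%), against 5.28% of all promoters. The letters ATGGCGGC, a core of the YY1 sequence, were in 13 (7.39%), against 3.21%, and CCAAT was in 86 (48.9%), against 39.2%. Among the 137 Zfp genes with H3K27ac alone, the ETS letters were in 14 (10.2%), against 9.92% of all genes of that class, and the YY1 letters in 13 (9.49%), against 5.94%. Among the 26 Zfp genes without a mark at a gene end, the ETS letters were in 4 (15.4%), against 1.23% of all such genes, and the YY1 letters in 0. All 4, Zfp787, Zfp59, Zfp759 and Zfp458, had H3K27ac of both libraries within 1 kb of the listed start, so their searched promoters did not lack the mark. The ETS and YY1 letters were both absent from the 13 promoters of Zfp genes with H3K27me3, where the shares over all genes with the mark were 1.96% and 1.59%. A match is a description of the letters and not a measured site.

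The genes through which KRAB zinc finger proteins silence their targets were counted from a fixed list of 26. H3K27ac was at 24 of them, against 60.8% of all protein-coding genes, and H3K27me3 at 1, against 28.7%. The gene with H3K27me3 was Trim28, the co-repressor that binds the KRAB domain. Trim28, on chromosome 7, had H3K27ac at 9.63 and 9.29 in replicates 1 and 2 and weak H3K27me3 at 2.81 and 3.49. Setdb1 had H3K27ac at 5.76 and 3.49, and Atf7ip, its partner, at 18.3 and 9.58. The HP1 gene Cbx3, a reader of H3K9 methylation, stood at 23.0 and 16.0, and the histone H3.3 gene H3f3b at 24.9 and 20.2. The exceptions were Dnmt1, the maintenance DNA methyltransferase gene, and Tasor, a gene of the HUSH silencing complex, which had no peak of any library within 1 kb of either annotated end. Listed starts and gene bodies were not searched for this list, so H3K27ac at a start inside either gene would have been missed.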

How the data were processed

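The 4 lists of broad peaks, 1 for each immunoprecipitated library, were used, and the 3 input libraries entered only through the authors' peak calls. The submitters' processing notes name fastp, Bowtie, Picard and MACS2 and the build GRCm38 (mm10). Tool versions are not given in the sources used here. For each peak the authors deposited a fold enrichment over background (a linear ratio), a −log10 p and −log10 q, and a score that repeats the −log10 q. The lowest −log10 q was just above 1. Replicates were called separately. One input served H3K27me3 replicate 1 together with H3K27ac replicate 2, per the labels. Replicates of a mark were treated as different pools of mice.

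Genes and sequences came from RefSeq tables of GRCm38.p6. Overlaps were computed in Python 3.11.15 with pandas 2.3.3 and numpy 2.4.6, and the overlap step was tested on made-up intervals. The value of a gene is that of its strongest peak by fold enrichment at either end, so the libraries' values can come from different ends. No statistical test was run. One gene of the planned cell type markers is not reported here. The planned count of zinc fingers and KRAB domains was not made, since protein sequences were not used here. The Zfp genes, the lists and the rules were chosen with earlier results of these data known. The text names every gene with H3K27me3 in both libraries (values for the 12 best mean ranks), the 8 best-ranked for H3K27ac, those next to the gap limit and the largest run of each chromosome. The motifs were chosen after the files were seen. The marks in the gene windows were also counted under the alternatives given at the end, some of them added after seeing the data.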

Additional observations from a re-analysis of the deposited data

How the results depend on the processing

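The clustered minus isolated difference in H3K27me3 was negative under all 19 alternatives. These recount the same peak lists and are not independent of each other. With related zinc finger symbols counted as neighbours, the classes stayed at 149 and 52 genes and the difference at −16.5 points. It was −9.53 percentage points when peaks needed a −log10 q of 2, −1.92 when they needed 5 (0 clustered and 1 isolated gene), −30.6 with a peak in either library, and −28.1 to −19.0 with 1 H3K27me3 library left out. The other alternatives moved it by less than the SD of the single-library differences (6.48 points). The H3K27ac difference was small and its sign was not stable: it became positive when a −log10 q of 2 was needed (0.348), over whole genes (0.981), at listed starts (7.44) and in either library (0.62). It came to −5.56 when a −log10 q of 5 was needed, −7.31 with 500 bp of overlap, −3.81 with windows of 2.5 kb, −0.539 with a gap limit of 50 kb and −0.813 to −0.0516 with 1 H3K27ac library left out. Among alternatives added after seeing the data, it was −0.775 without genes that have another gene's end in their windows, −0.792 without the CCCH genes, and −0.665, −3.33 and −0.546 without the genes on chromosomes 7, 8 and 13. The cause of these shifts was not tested.

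The count of 18 genes with H3K27me3 became 9 and 1 when a −log10 q of 2 and of 5 was needed and 51 in either library, and was 22 to 47 with 1 H3K27me3 library left out. The count of 10 genes with both marks became 2, 0, 6, 22, 20 and 45 when a −log10 q of 2 and of 5 was needed, with 500 bp of overlap, with windows of 2.5 kb, over whole genes and in either library, and was 11 to 36 with 1 library left out. The 164 genes with H3K27ac stayed within 1.5 times under all 10 alternatives. No test was run, and so no paired analysis was made. The labels do not pair libraries by replicate number. They link the marks only through the input that served H3K27me3 replicate 1 together with H3K27ac replicate 2.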
